A study of Mus musculus with 69 samples.

Results

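The proteasome subunit genes of mouse dorsal skin were followed after a topical dose of the phorbol ester TPA (12-O-tetradecanoylphorbol-13-acetate), an agent that inflames the skin and promotes tumours there. Members were all genes whose symbol is Psma, Psmb, Psmc, Psmd or Psme followed by a number and nothing more, which gave 42 of the 18820 genes measured. They lay on 49 probe sets, and a gene with several was read from the probe set of highest mean. Psma4 was measured only on a probe set shared with another symbol and was not used, and Psmc3ip and Psme3ip1 match the pattern loosely but are not subunits.

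The labels give 66 arrays of untreated or TPA-treated dorsal skin from FVB/N mice (FVB), Spret/Ei mice (SPR) and their cross (F1), aged to 8 weeks, shaved and then treated with a single dose in acetone. The treatment protocol that gives the single dose does not list 12 h or 1008 h. The design text speaks of replicate exposure, so the number of doses is uncertain. FVB had 3 arrays at each of 0, 2, 6, 12, 24, 48, 72, 168 and 1008 h. F1 had 4 arrays at 0 h, 2 each at 4, 6, 12, 24 and 72 h, 3 at 48 h, 6 at 1008 h and 1 each at 2 and 168 h. SPR had 2 arrays each at 0, 4, 12, 24, 48 and 1008 h and 1 each at 2 and 6 h. The controls were untreated skin at 0 h, arrays of vehicle alone were not analysed here, and TPA cannot be told apart from acetone, shaving or, at 1008 h, age. No label ties an array to its own mouse, so the spread behind the p-values may be technical.

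The proteasome degrades proteins that carry ubiquitin. Its core particle is a barrel of outer alpha rings (Psma genes) and inner beta rings (Psmb genes), and Psmb5, Psmb6 and Psmb7 encode the beta subunits that cut peptide bonds. The cap that recognises and unfolds substrates has a base with a ring of ATPases (Psmc genes) and a lid, both holding Psmd products. When a cell is exposed to interferon gamma, Psmb8, Psmb9 and Psmb10 can replace Psmb5, Psmb6 and Psmb7 in new particles, forming the immunoproteasome, which favours peptides that bind MHC class I. The transcription factor Nfe2l1 is known to raise the standard subunits together when proteasome capacity falls short.

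Values are RMA log2 expression as deposited, so a difference of 1 is a doubling, and levels of different probe sets were not set against each other. On 64 of the 66 arrays all 9 keratinocyte markers were bright, with Krt5 from 11.06 to 13.06 and Krt14 from 10.90 to 13.12. There were 2 arrays that stood apart, SPR 12 h replicate 1 and F1 72 h replicate 2, whose interquartile ranges of 1.38 and 2.39 compare with 3.40 to 3.89 elsewhere. The marker ranges leave both out. On SPR 12 h replicate 1 the mean of the gene-centred keratinocyte markers was -3.98, where the next lowest array had -0.84. On F1 72 h replicate 2 that mean was -0.09, within the range of the other arrays. These 2 arrays widen the spread that all groups share, with a median residual SD of the members of 0.362 over all 66 arrays and of 0.212 over the other 64. Counts of members are therefore given for all arrays and then for 64 arrays, and the adjusted p of a named gene over 64 arrays where its call differs. A call means an adjusted p under 0.05 in limma, with the Benjamini-Hochberg adjustment made over all genes, and errors after ± are the model's standard errors. FVB arrays are all labelled batch 1 and the others batches 2 and 3, so strains are compared only by their change from their own 0 h arrays. In bulk skin, fewer cells of a type and less RNA per cell cannot be told apart.

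In FVB skin part of the subunit genes rose from 6 h, the most members rose at 12 h, and the median member was back near its 0 h level by 72 h. At 12 h 23 of the 42 members rose and none fell, against 11.6% of all genes that rose, and the median member was 0.77 above 0 h. Over 64 arrays 31 members rose, against 17.5% of all genes. At 6 h 16 members rose and none fell, with a median of 0.55, against 12.1% of all genes, and 5 members, Psmb9 among them, had a change below 0. Over 64 arrays that count was 25, against 17.2%. The 6 h and 12 h counts moved with single arrays: leaving out 1 FVB array at a time left 3 to 13 members at 6 h, the lowest without 6 h replicate 2, and 15 to 22 at 12 h, the lowest without 0 h replicate 2 or 12 h replicate 2. FVB 0 h replicates 2 and 3 were rich in liver transcripts, with liver scores of 2.20 and 2.57 against -0.49 on replicate 1. Some treated arrays were too: the liver scores were 0.36, 1.59 and 0.46 at 6 h and 2.82, -1.45 and -1.88 at 12 h. Against replicate 1 alone the median member was at 0.50 at 6 h and 0.72 at 12 h, close to the values above. With a control of 1 array, assumed to vary like the other groups, 1 and 8 members were called at these times.

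The rise persisted at 24 h, when 15 members rose, with a median of 0.70, against 6.11% of all genes. Over 64 arrays it was 29, against 12.1%. At 48 h 9 members rose and none fell, with a median of 0.54, against 6.93% of genes that rose and 6.34% that fell. Over 64 arrays 23 rose and 2 fell, against 13.9% and 11.9%. Leaving out 1 array at a time left 5 to 12 members at 24 h and 3 to 9 at 48 h. Against 0 h replicate 1 alone the median member was at 0.62 at 24 h and 0.44 at 48 h, and with that control of 1 array limma called 0 members.

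The median shift was smaller at 2 h and near 0 at 72 and 168 h. At 2 h none was called in all arrays by limma (6 at an unadjusted p under 0.05), with a median of 0.29, against 6.52% of genes higher and 7.86% lower, and over 64 arrays 7 rose and 1 fell, against 11.6% and 13.1%. At 72 h Psmb1 rose and Psmb3 fell, with a median of 0.04, against 1.47% and 1.84% of all genes. Over 64 arrays 6 rose and 7 fell, against 5.47% and 8.72%. At 168 h none was called by limma (2 unadjusted), with a median of 0.01, against 0.308% higher and 0.159% lower. Over 64 arrays 1 rose and 2 fell, against 4.02% and 2.73%. Across the whole course the F test over times called 34 of 42 members in FVB, where 50.9% of all genes were called, and 40 over 64 arrays, where 66.7% were.

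**Figure D1:**
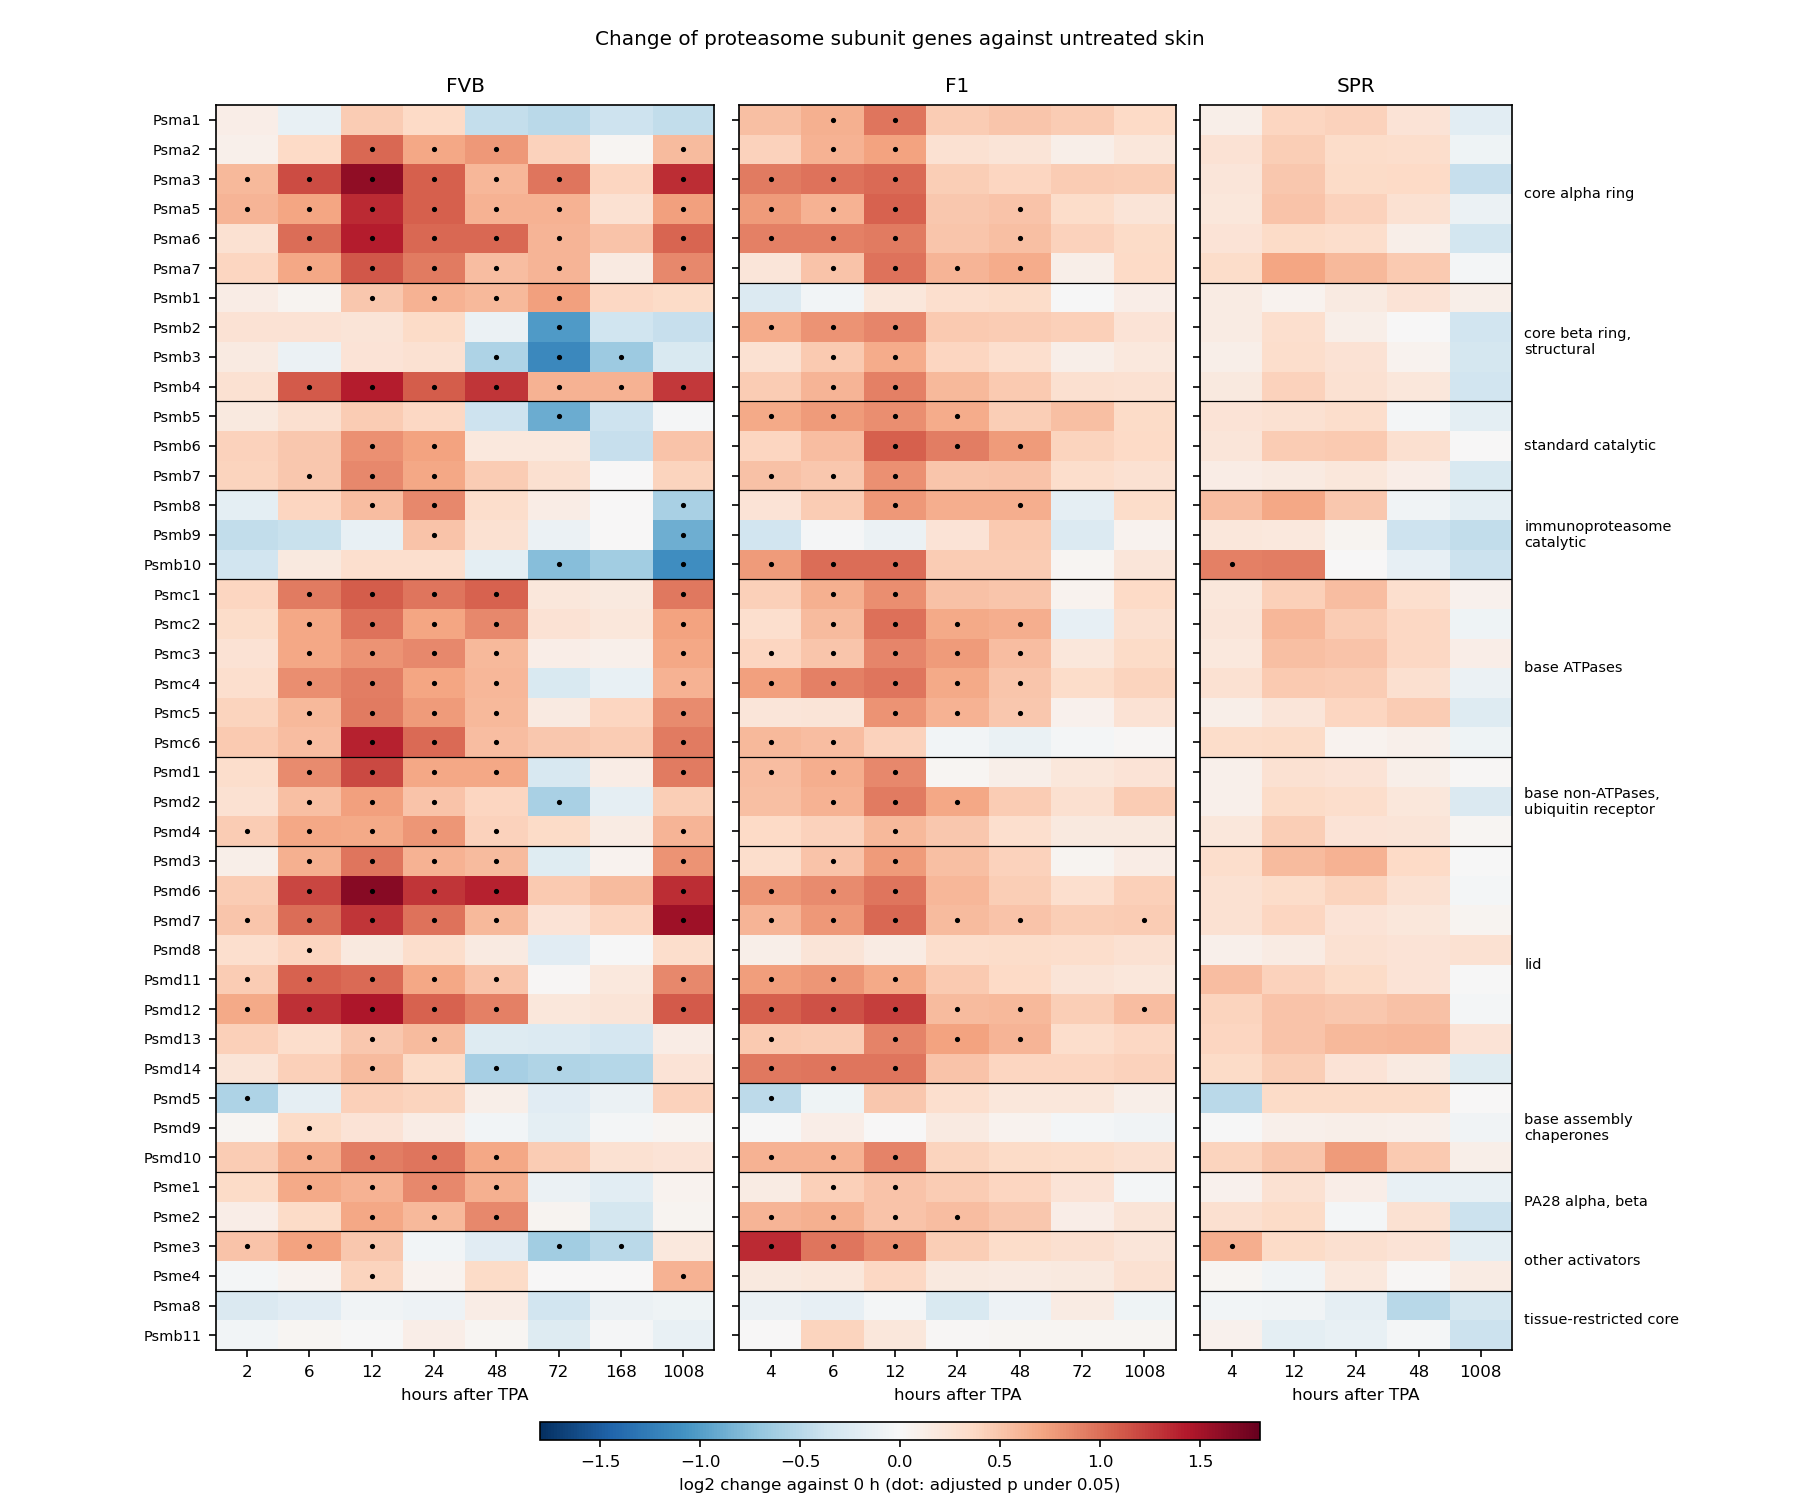
Log2 change (colour) of each of the 42 subunit genes from the 0 h arrays of its own strain, by hours after TPA, in FVB, F1 and SPR over 64 arrays, with genes grouped by role and a dot where the limma adjusted p is under 0.05. At 12 h 31 members are higher in FVB and 33 in F1, and the FVB falls at 1008 h lie in Psmb8, Psmb9 and Psmb10.

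Rises at 12 h in FVB came from most groups of subunits. In all arrays 5 of 6 alpha subunits rose, 6 of 6 base ATPases, 2 of 3 base non-ATPases, 5 of 8 lid genes, 2 of 4 structural beta genes, 1 of 3 standard catalytic genes and 0 of 3 immunoproteasome genes. The groups were not tested against each other. The 2 largest rises were in Psmd6, a lid subunit, and Psma3, an alpha ring subunit. Psmd6 read 8.54, 8.85 and 9.00 at 0 h and 10.47, 10.54 and 10.30 at 12 h. Every 12 h array lay above every 0 h array, a change of 1.64 ± 0.37 (n = 3 against 3, limma adjusted p = 0.000937, and 1.82e-07 over 64 arrays). Psmd6 was still 1.39 ± 0.37 higher at 48 h (limma adjusted p = 0.00987).

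Psma3 read 9.08, 9.04 and 9.29 at 0 h, 10.51, 10.44 and 9.97 at 6 h and 10.36, 10.73 and 11.12 at 12 h. Neither treated group overlapped the 0 h arrays, and the change was 1.17 ± 0.40 at 6 h and 1.60 ± 0.40 at 12 h (limma adjusted p = 0.0273 and 0.00295). The 12 h call held on leaving out any 1 of the 6 arrays and the 6 h call was lost in 4 of 6. Other examples at 12 h were the lid gene Psmd12, up 1.45 ± 0.32, the structural beta gene Psmb4, up 1.42 ± 0.33, the alpha gene Psma6, up 1.41 ± 0.35, and the ATPase gene Psmc6, up 1.38 ± 0.33. All 4 passed the limma test, with adjusted p from 0.000845 to 0.00234. Psmd1, the base scaffold gene, was up 1.19 ± 0.39, and Psmd4, which encodes a ubiquitin receptor, 0.68 ± 0.22 (limma adjusted p = 0.0227 and 0.0222).

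Of the 3 base assembly chaperones, which help the ATPase ring form, Psmd10 rose at 12 h by 0.92 ± 0.32 (limma adjusted p = 0.0305). Psmd5 was lower at 2 h by a change of -0.55 ± 0.23 that passed only over 64 arrays (limma adjusted p = 0.0160 there). Psmd9 changed by no more than 0.34 at any time in FVB and passed only at 6 h over 64 arrays. The members known for expression in germ cells and thymus, Psma8 and Psmb11, were called in no comparison; their changes in FVB ran from -0.35 to 0.14 and from -0.23 to 0.12.

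Some beta genes went the other way at 72 h, and so did some members of other groups. Psme3 read 9.12 to 9.39 there and Psmd14 9.22 to 9.67, below their 0 h ranges of 9.83 to 9.94 and 9.85 to 10.13. Psmb3, a structural beta subunit, read 11.69, 11.48 and 11.32 at 0 h and 10.38, 10.62 and 10.01 at 72 h. The 72 h arrays all lay below the 0 h arrays, by -1.16 ± 0.34 (limma adjusted p = 0.0495, and 8.37e-06 over 64 arrays), and the call in all arrays was lost on leaving out any 1 of the 6. Psmb2 was at -1.02 ± 0.40 and passed only over 64 arrays (limma adjusted p = 0.136 and 0.000945). At the same time Psmb1 rose by 0.74 ± 0.18 (limma adjusted p = 0.0171), while Psma3 was at 0.96 ± 0.40 (limma adjusted p = 0.167 and 0.000792).

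The catalytic pairs are the genes that exchange between standard and immunoproteasome. Their promoters, from 250 bases before to 50 bases after the gene's start in RefSeq on GRCm38.p6, are shown as a description. The part of promoter sequence in the changes was not tested. Of the 42 members 35 had a promoter there, and Psmb7 was not among them. Psmb5 lies at chr14:54617946-54618245 on the minus strand, Psmb6 at chr11:70525107-70525406 on the plus strand and Psmb8 at chr17:34197945-34198244 on the plus strand. Psmb9 lies at chr17:34187281-34187580 and Psmb10 at chr8:105938343-105938642, both on the minus strand, and Psme1 at chr14:55578244-55578543 on the plus strand. Capitals mark TGACNNNGC, the antioxidant response element core, in Psmb5 and Psmb6, TTCNNNGAA, a gamma-activated site, in Psmb8, and GAAA, any 2 bases, GAAA, an interferon-stimulated response element core, in Psme1, there on the minus strand.
Psmb5: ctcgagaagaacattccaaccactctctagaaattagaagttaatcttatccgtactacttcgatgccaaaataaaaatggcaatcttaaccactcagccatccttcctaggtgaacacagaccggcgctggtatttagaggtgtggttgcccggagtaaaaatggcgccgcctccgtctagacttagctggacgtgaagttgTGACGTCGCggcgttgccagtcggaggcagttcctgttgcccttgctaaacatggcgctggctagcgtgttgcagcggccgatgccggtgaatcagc
Psmb6: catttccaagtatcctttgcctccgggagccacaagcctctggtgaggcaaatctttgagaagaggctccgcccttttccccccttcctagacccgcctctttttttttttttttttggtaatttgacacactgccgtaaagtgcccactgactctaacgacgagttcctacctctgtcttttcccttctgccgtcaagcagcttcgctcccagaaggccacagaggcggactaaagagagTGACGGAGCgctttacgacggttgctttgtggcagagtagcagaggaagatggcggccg
Psmb8: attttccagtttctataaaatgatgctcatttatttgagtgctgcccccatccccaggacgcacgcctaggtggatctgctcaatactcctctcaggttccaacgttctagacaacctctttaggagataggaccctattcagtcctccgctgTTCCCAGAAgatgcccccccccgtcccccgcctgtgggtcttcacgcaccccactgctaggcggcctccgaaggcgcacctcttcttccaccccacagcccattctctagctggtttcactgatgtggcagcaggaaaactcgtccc
Psmb9: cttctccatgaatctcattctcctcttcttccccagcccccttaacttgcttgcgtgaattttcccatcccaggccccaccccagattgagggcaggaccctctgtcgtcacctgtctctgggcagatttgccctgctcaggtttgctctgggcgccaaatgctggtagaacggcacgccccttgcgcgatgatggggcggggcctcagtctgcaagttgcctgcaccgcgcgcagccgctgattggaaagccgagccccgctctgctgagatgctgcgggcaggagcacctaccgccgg
Psmb10: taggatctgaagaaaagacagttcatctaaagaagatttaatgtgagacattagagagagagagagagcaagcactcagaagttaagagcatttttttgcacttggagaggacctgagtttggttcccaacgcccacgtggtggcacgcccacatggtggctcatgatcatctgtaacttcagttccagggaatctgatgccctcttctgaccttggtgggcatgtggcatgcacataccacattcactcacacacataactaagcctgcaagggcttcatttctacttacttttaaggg
Psme1: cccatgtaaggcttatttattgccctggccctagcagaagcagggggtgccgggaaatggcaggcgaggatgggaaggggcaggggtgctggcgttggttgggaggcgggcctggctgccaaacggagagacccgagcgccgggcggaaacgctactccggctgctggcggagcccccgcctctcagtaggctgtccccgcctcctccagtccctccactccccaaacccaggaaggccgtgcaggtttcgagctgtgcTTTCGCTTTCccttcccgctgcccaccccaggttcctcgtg

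Both strands were searched. TGACNNNGC was in 6 of the 35 promoters (17.1%) against 14% of 27025 genes, and besides Psmb5 and Psmb6 in Psmc6, Psmd9, Psmd12 and Psme4. The match begins 47 bases before the start of Psmb5 and 9 bases before that of Psmb6. The interferon-stimulated element was in 4 (11.4%) against 3.99%, in Psmb3, Psmd4, Psmd9 and Psme1. TTCNNNGAA was in 2 (5.71%) against 9.55%, and none of these 3 motifs was in the windows of Psmb9 or Psmb10. The general promoter motif GGGCGG was in 21 (60%) against 38.2%, CCAAT in 14 (40%) against 41.1% and TATAAA in 4 (11.4%) against 15.7%. A match describes letters in a window and is not a site.

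Of the 3 standard catalytic genes 1, Psmb7, rose at 12 h in FVB, and Psmb6 joined it over 64 arrays. Psmb5, the chymotrypsin-like subunit, read 11.14, 11.02 and 10.84 at 0 h, 11.10, 11.59 and 11.68 at 12 h and 9.83, 10.36 and 10.14 at 72 h. The 12 h arrays overlapped the controls and the 72 h arrays lay below them, a change of -0.89 ± 0.37 (limma adjusted p = 0.167, and 0.00225 over 64 arrays). Psmb6, the caspase-like subunit, read 8.84, 8.67 and 8.75 at 0 h and 9.19, 9.51 and 10.01 at 12 h. The groups did not overlap, and the change of 0.82 ± 0.36 passed only over 64 arrays (limma adjusted p = 0.0987 and 0.00215). Psmb7, the trypsin-like subunit, read 9.45, 9.11 and 9.16 at 0 h and 9.69, 10.06 and 10.57 at 12 h. It did not overlap either, and rose by 0.86 ± 0.29 (limma adjusted p = 0.0241, and 0.000175 over 64 arrays). The call in all arrays was lost in 4 of 6 when 1 array was left out, with adjusted p up to 0.173 in limma.

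The immunoproteasome genes did not share one time course. Psmb8, which can replace Psmb5, read 7.55, 7.29 and 7.31 at 0 h and 8.32, 8.21 and 8.22 at 24 h. The 24 h arrays lay above all controls, by 0.87 ± 0.30 (limma adjusted p = 0.0450, and 0.00258 over 64 arrays), a call lost on leaving out any 1 of the 6 arrays. Psmb9, which can replace Psmb6, read 8.19, 8.35 and 8.18 at 0 h, 7.98, 7.77 and 7.65 at 2 h and 7.86, 7.68 and 7.97 at 6 h. It lay below the controls at both times without passing the test, at -0.44 and -0.40, and at 24 h read 8.83, 8.76 and 8.68, above all controls by 0.52 ± 0.23 (limma adjusted p = 0.136, and 0.0498 over 64 arrays). Psmb10, which can replace Psmb7, read 7.98, 8.06 and 8.07 at 0 h and 8.20, 8.21 and 8.59 at 12 h, above the controls by 0.30, which passed in neither set of arrays. Psmb10 lay below all controls at 2 h (7.39 to 7.85), 72 h (7.07 to 7.68) and 168 h (7.35 to 7.49). Its changes at 72 and 168 h were -0.76 and -0.63, which did not pass in all arrays.

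At 48 h the 3 FVB arrays disagreed on these genes. Psmb8 read 8.45, 7.72 and 6.91, Psmb9 9.33, 8.28 and 7.95, and Psmb10 8.63, 7.63 and 7.30. Replicate 1 was the highest for all 3 and also had the highest interferon gamma response score of that group, 1.89 against -0.65 and -0.53, and the highest leukocyte score, 1.19 against 0.05 and -0.41. A score is the mean log2 level of a list after centring each gene; whether these go with the subunit values was not tested.

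**Figure D2:**
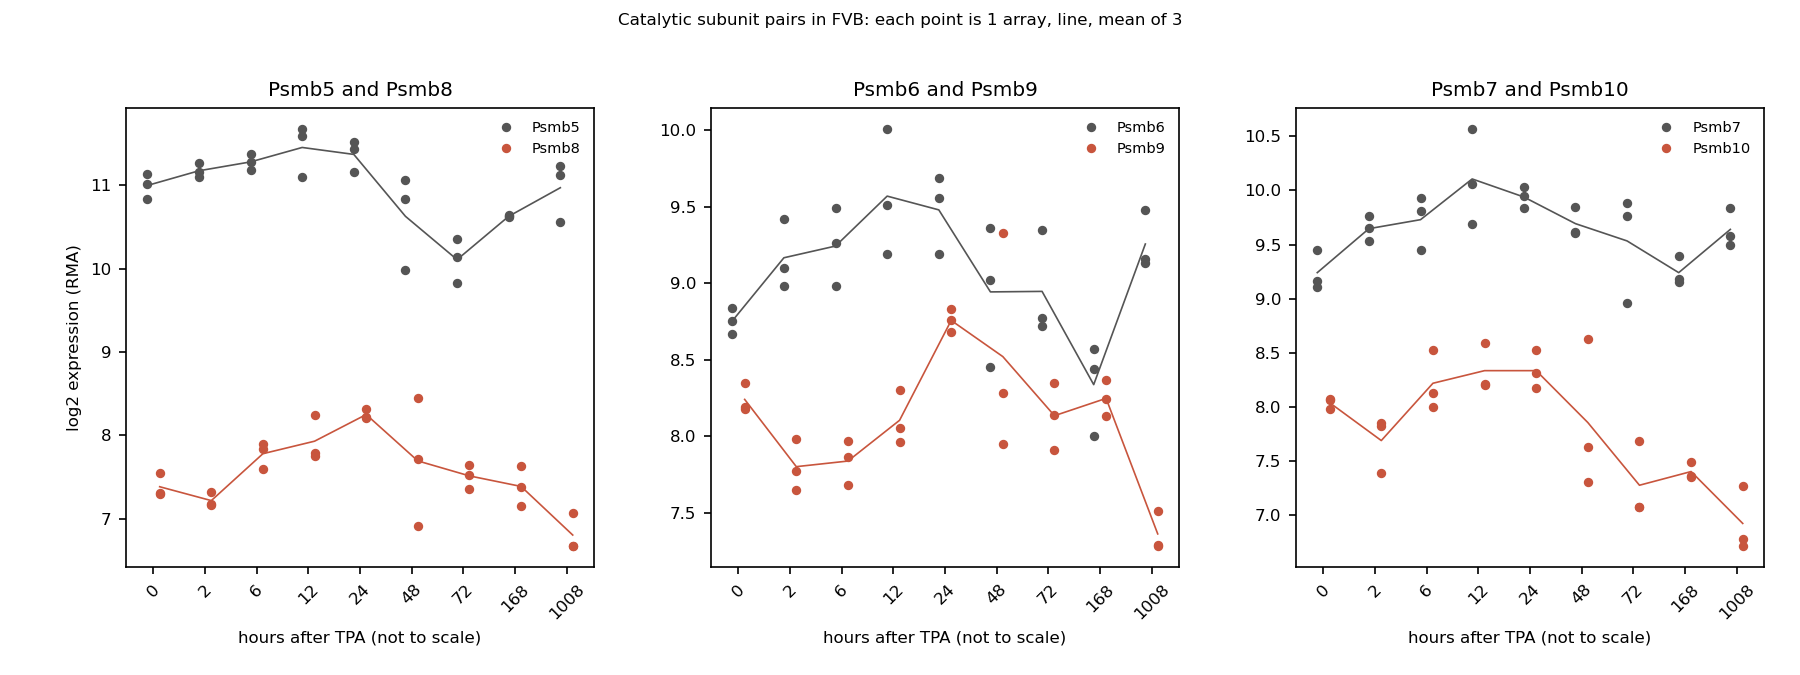
Log2 expression on every FVB array (points; lines are means of 3) of Psmb5, Psmb6 and Psmb7 in grey and of Psmb8, Psmb9 and Psmb10 in red, by hours after TPA (axis not to scale); the levels of a pair come from different probe sets and are not comparable. All 3 arrays of Psmb9 and Psmb10 at 1008 h lie below the 0 h arrays, whereas those of Psmb6 and Psmb7 lie above them.

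The log2 ratio within each pair was followed for the exchange genes. Psmb9 to Psmb6 was lower at 2, 6 and 12 h in FVB, by -0.85 ± 0.29, -0.90 ± 0.29 and -0.95 ± 0.29 (limma adjusted p = 0.0437, 0.0204 and 0.0156). Over 64 arrays the adjusted p was 0.00603, 0.00225 and 0.00137. At these times Psmb6 was above 0 h and Psmb9 below it. The Psmb8 to Psmb5 ratio was 1.02 ± 0.34 higher at 72 h, which passed only over 64 arrays (limma adjusted p = 0.0827 and 0.0205), beside a Psmb8 change of 0.13. The Psmb10 to Psmb7 ratio went the other way at 72 h, with a mean of -2.26 against -1.21 at 0 h. Its 72 h arrays ran from -2.81 to -1.27 and overlapped the 0 h range of -1.48 to -1.06. Leaving out 1 array at a time kept the 3 early Psmb9 ratios between -1.11 and -0.71, with some calls lost.

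**Figure D3:**
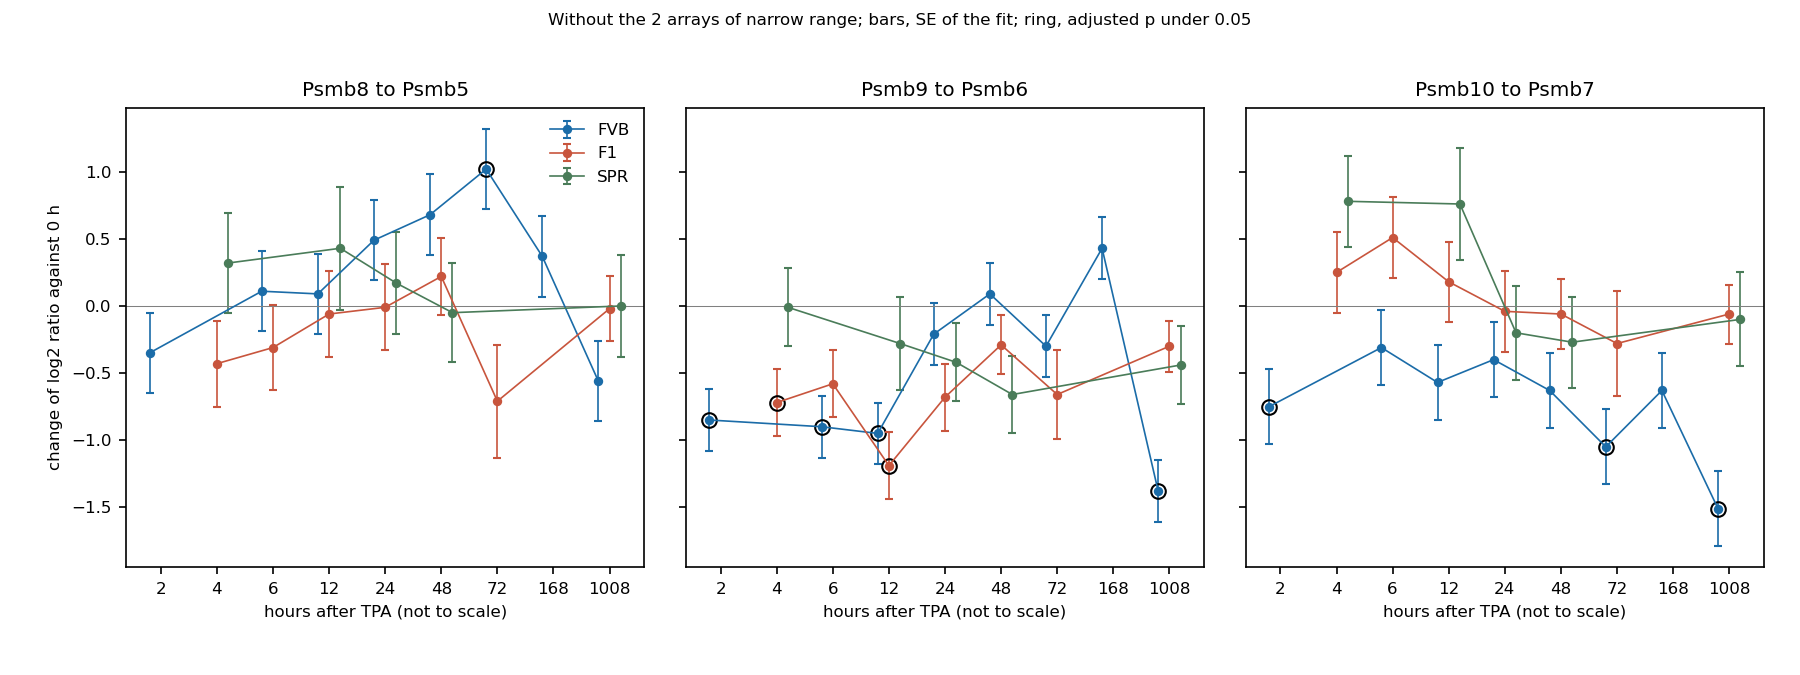
Change from 0 h of the log2 ratio of each immunoproteasome gene to its standard counterpart, by strain and hours after TPA (axis not to scale), over 64 arrays; bars are standard errors of the limma model and rings mark an adjusted p under 0.05. Psmb9 to Psmb6 lies at -1.38 and Psmb10 to Psmb7 at -1.51 in FVB at 1008 h.

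At 1008 h in FVB the standard and immune sets went apart: 14 members rose, all of them standard subunits, and 2 fell, with a median of 0.47, against 8.17% of all genes higher and 9.76% lower. Over 64 arrays 20 rose and 3 fell, against 13.8% and 15.3%. The rises included Psmd7, a lid gene, by 1.53 ± 0.37, Psmd6 by 1.33 ± 0.37 and Psma3 by 1.33 ± 0.40 (limma adjusted p = 0.00266, 0.00834 and 0.0163). Psmd6 read 9.96, 10.48 and 9.95 and Psma3 10.79, 10.15 and 10.46, above all of their 0 h arrays.

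The 2 falls were in Psmb9 and Psmb10. Psmb9 read 7.51, 7.29 and 7.28, a change of -0.88 ± 0.23, and Psmb10 7.27, 6.78 and 6.71, a change of -1.12 ± 0.29 (limma adjusted p = 0.00607 and 0.00572). Both sets of arrays lay below all 0 h arrays. Psmb8 read 7.07, 6.67 and 6.67, also below all 0 h arrays, at a change of -0.58 that passed only over 64 arrays (limma adjusted p = 0.184 and 0.0391). The Psmb9 to Psmb6 ratio was -1.38 ± 0.29 and the Psmb10 to Psmb7 ratio -1.51 ± 0.32 (limma adjusted p = 0.000683 and 0.000549). The Psmb9 and Psmb10 falls and both ratios stayed called on leaving out any 1 of the 6 arrays.

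Part of the interferon gamma response and class I antigen processing genes fell on the same 1008 h arrays. Of 12 interferon gamma response genes measured, 6 fell (7 over 64 arrays), against 9.76% of all genes (15.3%), and the median was -1.06. The score of that list was -1.23 to -1.02 there and -0.13 to 0.09 at 0 h. Of 13 class I antigen processing genes 5 fell and none rose (7 and 1 over 64 arrays), including the peptide transporter gene Tap1, by -1.39, and Nlrc5, the activator of class I genes, by -1.63 (limma adjusted p = 0.00195 and 1.13e-05). Of 16 leukocyte genes 2 fell (3 over 64 arrays), near the 9.76% (15.3%) of all genes. The 2 were the T cell receptor genes Cd3e and Cd3g, by -1.96 and -1.87. Of the same 16, 1 rose, the neutrophil chemokine receptor gene Cxcr2, by 2.73, where 8.17% of all genes rose. The leukocyte score ran from -0.58 to -0.39 there and from -0.31 to 0.31 at 0 h. The part of these lists in the Psmb9 and Psmb10 values was not tested. Against 0 h replicate 1 alone, the control with few liver transcripts, the median member at 1008 h was at 0.42 and both ratios were at -1.25. The liver score was -0.49 on that control and 1.03 to 1.24 on the 1008 h arrays. With that control of 1 array, whose spread is taken from the other groups, 1 member was called, higher, and neither Psmb9 nor Psmb10.

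PA28 alpha and beta (Psme1 and Psme2) form an interferon-inducible ring that opens the core without the ubiquitin cap. Psme1 read 8.07, 8.05 and 7.95 at 0 h and 8.93, 8.92 and 8.82 at 24 h in FVB. It lay above all controls, by 0.87 ± 0.27 (limma adjusted p = 0.0276), a call lost on leaving out any 1 of the 6 arrays. Psme2 read 9.20, 9.38 and 9.35 at 0 h, 9.76, 9.91 and 10.34 at 12 h and 10.26, 10.22 and 10.06 at 48 h. Both treated groups lay above the controls, and the 48 h change was 0.87 ± 0.23 (limma adjusted p = 0.00868). Neither gene was lower at 1008 h, where their changes were 0.07 and 0.05.

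The nuclear activator gene Psme3 (PA28 gamma) rose early. Its change was 0.72 ± 0.26 at 6 h in FVB and 1.34 ± 0.27 at 4 h in F1 (limma adjusted p = 0.0331 and 0.000272). In SPR at 4 h it was 0.66 ± 0.32 higher and passed only over 64 arrays (limma adjusted p = 0.266 and 0.00864). Psme4, which encodes the activator PA200, was 0.62 ± 0.28 higher at 1008 h in FVB and passed only over 64 arrays (limma adjusted p = 0.133 and 0.00192).

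In F1 skin the count of members that rose was largest at 12 h, and leaving out the 2 narrow arrays raised it at each time from 4 to 48 h. In all arrays the shares at 4 and 6 h were near those of all genes. At 12 h 10 members rose, with a median of 0.84, against 4.45% of all genes, and over 64 arrays 33 rose, against 9.63%. At 6 h 4 rose, with a median of 0.59, against 8.79%, and over 64 arrays 29, against 14.3%. At 4 h 3 rose, with a median of 0.46, against 9.09%, and 11.5% of genes fell. Over 64 arrays 20 rose and Psmd5 fell, against 13.9% and 15.8%. Single arrays moved these counts to between 1 and 5 at 4 h, 0 and 5 at 6 h and 0 and 9 at 12 h.

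Later F1 calls came only over 64 arrays. At 24 h no member was called by limma in all arrays (10 at an unadjusted p under 0.05) and 12 rose over 64 (1.58% and 4.09% of all genes), with a median of 0.49. At 48 h the counts were again 0 (10 unadjusted) and 12 (1.42% and 3.38%), with a median of 0.44. At 1008 h they were 0 (2 unadjusted) and 2, Psmd7 and Psmd12 (0.898% and 2.32%), with a median of 0.27. No member was called at 72 h by limma, or had an unadjusted p under 0.05, where the median was -0.04, and 0.22 without the narrow array. The F test over times called 8 members, against 26.7% of genes, and 33 over 64 arrays, against 35.0%.

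F1 arrays lie in 2 batches, each with 1 treated array at 6 and at 12 h. The median member at 12 h was 0.56 above 0 h in batch 2 and 1.09 in batch 3, and at 6 h it was 0.37 and 0.79. In batch 2 alone limma called 0 members at 4, 6 and 12 h. Psmd6 read 9.44, 8.93, 9.36 and 8.95 at 0 h and 10.17 and 10.11 at 12 h, above all controls by 0.97 ± 0.39 (limma adjusted p = 0.114, and 0.00223 over 64 arrays). Psma3 read 9.66, 9.37, 9.65 and 9.24 at 0 h and 10.26 and 10.73 at 12 h, again above all controls, by 1.02 ± 0.43 (limma adjusted p = 0.137 and 0.000466). Psmd12 rose in all arrays, by 1.24 ± 0.34 (limma adjusted p = 0.0149).

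Among the exchange genes in F1, Psmb10 rose and Psmb9 did not pass the test. Psmb10 read 7.69, 7.14, 7.08 and 7.15 at 0 h, 8.32 and 8.21 at 6 h and 8.42 and 8.11 at 12 h. Both treated groups lay above all controls, by 1.00 ± 0.31 each (limma adjusted p = 0.0180 and 0.0331, and 0.00147 and 0.00273 over 64 arrays). When 1 array was left out, the 6 h call in all arrays was lost in 2 of 6 cases and the 12 h call in 5 of 6, with limma adjusted p up to 0.175 and 0.371. Psmb9 read 8.10, 8.18, 8.13 and 8.03 at 0 h and 8.24 and 7.77 at 12 h, on either side of the controls. Psmb6 read 8.99, 8.23, 8.92 and 8.54 at 0 h and 9.98 and 9.53 at 12 h, above all controls. The Psmb9 to Psmb6 ratio was lower at 12 h by -1.19 ± 0.31 (limma adjusted p = 0.00993), at -0.92 in batch 2 and -1.46 in batch 3. At 24 h the batches split, with 0.14 and -1.51. The single F1 array at 2 h, which was not tested, read 6.85 for Psmb9, below all 4 controls.

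SPR skin showed small changes, and its 12 h result rests on the narrow array. In all arrays 18 members were lower at 12 h, with a median of -0.81, against 23.3% of all genes. Without the narrow arrays limma called none there (7 at an unadjusted p under 0.05, all higher), the median was 0.37, and 0.436% of genes were lower. On the narrow array Psmb5 read 7.68 and Psmd6 7.05, and on the other 12 h array 11.23 and 10.28, against 10.93 and 11.00 and 9.83 and 10.07 at 0 h. At 4 h no member was called in all arrays (2 unadjusted) and 2, Psmb10 and Psme3, over 64 (3.26% and 5.78% of all genes), with a median of 0.21. Psmb10 read 7.62 and 7.94 at 0 h and 8.58 and 8.80 at 4 h, above both controls. No member was called by limma at 24, 48 or 1008 h, with medians of 0.31, 0.24 and -0.09, and at an unadjusted p under 0.05 there were 0 at each time in all arrays and 8, 5 and 0 over 64. The F test over times called 24 members, against 35.3% of genes, and 4 over 64 arrays, against 13.5%.

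**Figure D4:**
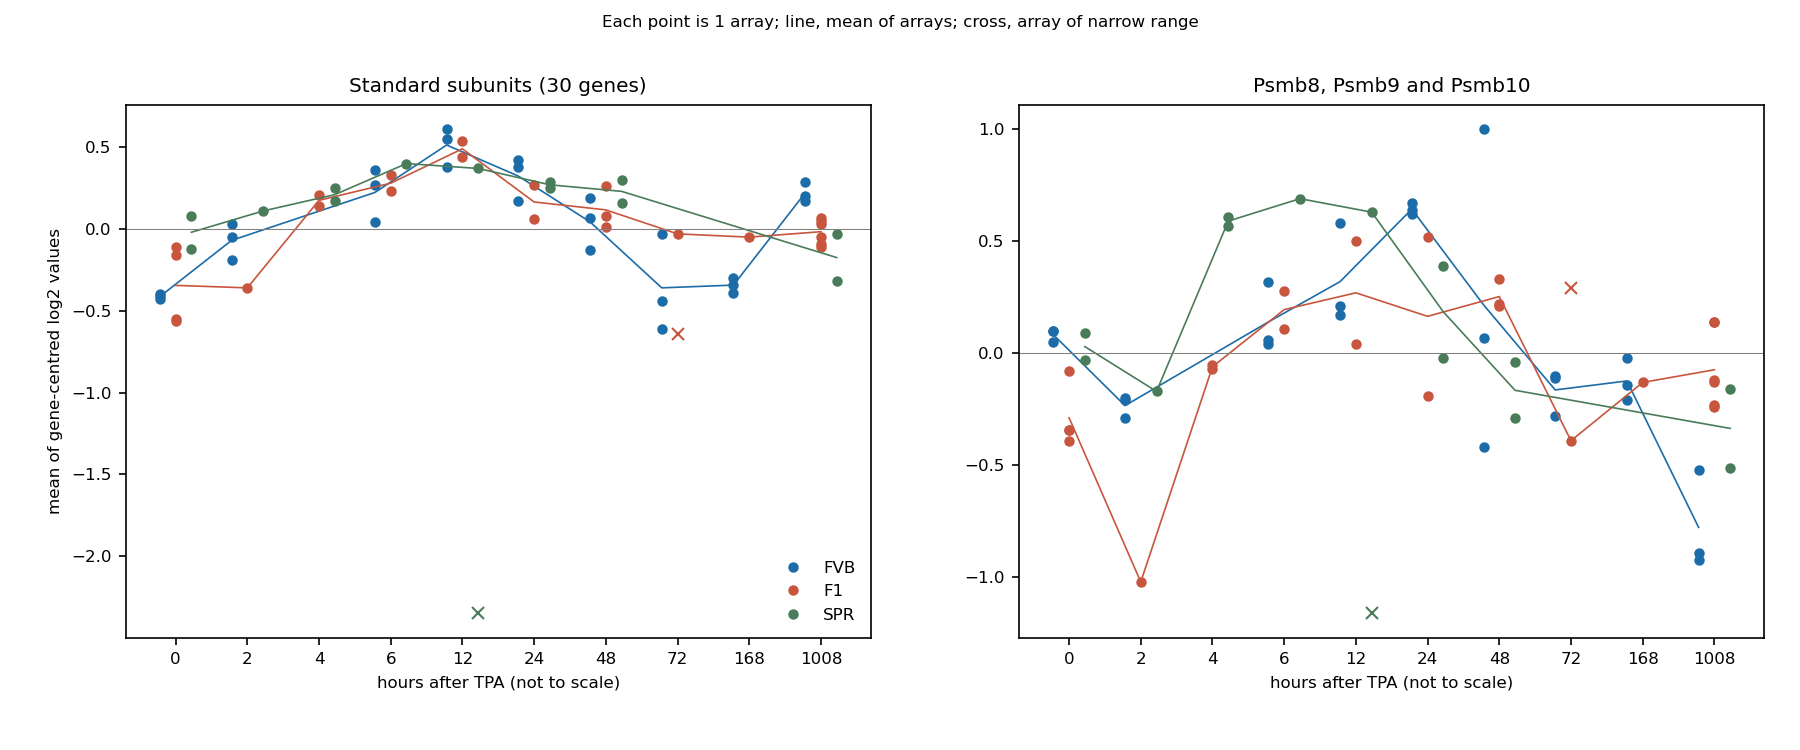
Mean gene-centred log2 value of the 30 standard subunits and of the 3 immunoproteasome genes on every array (points) by strain and hours after TPA (axis not to scale); lines join group means without the narrow arrays, which are crosses. The FVB arrays of the standard subunits lie at -0.43 to -0.40 at 0 h and 0.38 to 0.61 at 12 h, and the narrow SPR 12 h array at -2.35.

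Over 64 arrays, 28 members rose at 12 h in both FVB and F1, which is 90.3% of those that rose in FVB and 84.8% of those in F1. Over all genes these shares were 45.6% and 82.7%. Pearson's r of the 2 changes was 0.65 over the 42 members at 12 h and 0.16 at 48 h, and over all genes 0.78 and 0.51. These points share arrays within each strain, r is given as a description, and no difference between the times was tested.

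Few members differed in their change between strains. In all arrays the calls were at 12 h and rested on the narrow array: 33 members lower in SPR than in FVB (14.7% of genes) and 29 lower in SPR than in F1 (5.33%), and none in either without it. Over 64 arrays F1 exceeded FVB at 48 h for Psmb3, Psmd13 and Psmd14, by 0.85, 0.83 and 0.99 (1.16% of genes higher), and at 72 h for Psmb3 and Psmb5, by 1.26 and 1.43 (0.181%). SPR was below FVB at 48 h for Psmb4, by -1.08 (0.685%).

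At 1008 h the changes differed between strains in both sets, over 64 arrays only. F1 exceeded FVB for Psmb10, Psmb9, Psmb8 and Psma1, by 1.34, 0.94, 0.92 and 0.81 (3.36% of genes higher). On the 6 F1 arrays at 1008 h Psmb9 read 8.33, 8.04, 8.13, 8.31, 8.02 and 8.25, across the range of its 0 h arrays. F1 was below FVB for 6 standard subunits, among them Psmd7 by -1.07 and Psmb4 by -0.99 (3.59% lower). SPR was below FVB for 10 members, led by Psma3 at -1.75, Psmb4 at -1.61 and Psmd7 at -1.47 (3.96%). The Psmb10 to Psmb7 ratio was 1.46 higher in F1 than in FVB and 1.41 higher in SPR (limma adjusted p = 0.00922 and 0.0399). Strain and batch cannot be told apart in these differences.

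Of 13 assembly, lid and accessory genes outside the symbol pattern, 5 rose at 12 h in FVB, and 9 over 64 arrays, against 11.6% and 17.5% of all genes. The largest were Zfand5, by 1.61, and Uchl5, which encodes a deubiquitinase of the cap, by 1.07. Of 11 genes of the Nfe2l1 axis and ubiquitin shuttles, 1 rose at 6 h in FVB, near the 12.1% of all genes, and 7 over 64 arrays, against 17.2%. Nfe2l1 itself was 0.60 higher at 6 h and passed only over 64 arrays (limma adjusted p = 0.112 and 0.00836). Vcp, the segregase that extracts ubiquitinated proteins, rose by 1.29 at 12 h, and Nfe2l2, the antioxidant response factor, by 1.07 at 2 h (limma adjusted p = 0.00731 and 0.00377).

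Interferon gamma response genes rose at 4 to 6 h, when neither Psmb8 nor Psmb9 was called in any strain. Psmb10 was called at 6 h in F1, where it rose by 1.00. At 4 h in SPR Psmb10 was higher by 0.91. That change passed only without the narrow arrays (limma adjusted p = 0.129 and 0.0251). In the fit of all arrays Psmb10 was not called at 6 h in FVB or at 4 h in F1. Of 12 response genes measured, 6 rose at 6 h in FVB, against 12.1% of all genes, with a median of 1.09. At 4 h 10 rose in F1, against 9.09%, with a median of 1.79, and 7 in SPR, against 3.26%, with a median of 1.55. Irf1, the transcription factor known to drive Psmb9, rose by 2.50 ± 0.30 at 4 h in F1 (limma adjusted p = 2.83e-07). There Psmb9 read 7.76 and 7.79, below all 4 controls, at a change of -0.34 that did not pass. At 12 h, when F1 Psmb10 was still higher, 1 of the 12 response genes was called, where 4.45% of all genes rose and 4.63% fell. Whether the response genes and the subunit genes are linked was not tested.

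Of the 6 members with several probe sets, Psmd2, a base scaffold gene, was the one whose probe sets differed most visibly in FVB. With the probe set used given first, they were at 0.54 and 0.96 at 6 h and at 0.38 and 1.03 at 48 h. At 72 h they were at -0.58 and -0.10, and at 1008 h at 0.44 and 1.02. At 168 h they lay on opposite sides of 0, at -0.16 and 0.46.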

How the data were processed

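Expression in mouse dorsal skin was measured on 69 Affymetrix arrays. The authors deposited log2 expression values of 35556 probe sets, from 0.206 to 14.839, and RMA is the tool named per the submitters' processing notes, without a version. The treatment of batches ahead of deposit is not stated in any source used here. Probe sets were named from the platform annotation: 21218 had 1 gene symbol, 1881 several (not used) and 12457 none there. Each of 18820 genes was read from its probe set of highest mean. Strain and time came from the labels, which leave 3 arrays without a group, and these entered no comparison.

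The test of change was limma 3.58.1 (R 4.3.3), fitting 27 groups and the difference of batches 2 and 3 together (38 residual degrees of freedom), with two-sided p adjusted over all genes, no threshold of size and no filter on low values. Log2 ratios of the 3 catalytic pairs were fitted in the same model. The model was checked on simulated data. The number of arrays limits the precision. Replicate numbers do not pair arrays and no block was used. Groups of 1 array (F1 at 2 and 168 h, SPR at 2 and 6 h) were not tested. Alternatives were centring, cyclic loess, other filters, batch and probe set choices, and leaving out arrays; 3 of them, on arrays that stand apart, were chosen after seeing the data.

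Members and lists were chosen with earlier results of these data known. Values in every array are given for the 6 catalytic exchange genes, Psme1, Psme2 and the members with the 2 largest rises and the 2 largest falls in FVB; up to 3 examples stand for each other group, and up to 4 for a pathway list. Other named members were chosen after their values were seen. Figures were drawn with matplotlib 3.10.9.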

Additional observations from a re-analysis of the deposited data

Results flagged for a closer look

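Within groups of 4 to 10 arrays, 5 of 90 combinations of group and gene or ratio had 1 array far from the rest, where chance gives about 1 in 20. In F1 at 0 h these were Psma2 on replicate 4, at 8.21, Psmb10 on replicate 1, at 7.69, and Psme3 on replicate 4, at 9.17. In F1 at 1008 h they were Psmd1 on replicate 6, at 10.83, and the log2 ratio of Psmb8 to Psmb5 on replicate 3, at -3.82.

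The change at 12 h differed between SPR and the other strains for 33 members against FVB and for 29 against F1. All were lower in SPR, where 14.7% and 5.33% of all genes were lower. The 12 h change also differed for the log2 ratio of Psmb9 to Psmb6, by 1.70 against FVB and 1.94 against F1. For that of Psmb10 to Psmb7 it differed by 1.60 against FVB. No member differed in either comparison without the 2 arrays of narrow range.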

How the results depend on the processing

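Counts below are of the 42 members called, and the cause of a shift was not tested unless an alternative leaves out arrays or adds a size threshold. They stand without the share of all genes called in the same fit, which also moves between fits. At 24 h in FVB 6.11% of all genes rose in all arrays and 12.1% without the 2 narrow arrays. A count here therefore does not show whether the members were called more often than all genes. Without the 2 narrow arrays the FVB counts were 8, 25, 29, 25, 13 and 3 at 2, 6, 24, 48, 72 and 168 h. In F1 it was 21, 29, 33, 12, 12 and 2 at 4, 6, 12, 24, 48 and 1008 h, and in SPR 2 and 0 at 4 and 12 h. For F1 minus FVB it was 3, 2 and 10 at 48, 72 and 1008 h, for SPR minus FVB 0, 1 and 10 at 12, 48 and 1008 h, and for SPR minus F1 0 at 12 h. The F test called 33 in F1 and 4 in SPR. At 12 h in SPR these changes turned sign without them: Psmb5 0.27, Psmb6 0.46, Psmb7 0.16, Psme1 0.28, Psmd6 0.33, Psma3 0.48 and Psmb3 0.31. The SPR ratios Psmb8 to Psmb5 and Psmb10 to Psmb7 fell to 0.43 and 0.76 and lost their call.

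With cyclic loess between arrays the FVB counts were 6, 29, 22, 12, 3 and 25 at 2, 24, 48, 72, 168 and 1008 h. The F1 counts were 13, 23, 29, 9, 7 and 1 at 4, 6, 12, 24, 48 and 1008 h, and the SPR counts 3 and 2 at 4 and 12 h. For F1 minus FVB they were 4, 4 and 9 at 48, 72 and 1008 h, for SPR minus FVB 9, 1 and 11 at 12, 48 and 1008 h, and for SPR minus F1 0 at 12 h. The F test called 28 in F1 and 6 in SPR. Turned in SPR at 12 h were Psmb5 0.13, Psmb7 0.18 and Psmb3 0.34, and the SPR ratios were 0.07 and 0.45.

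With each strain fitted alone FVB had 4, 27, 20, 7 and 1 members at 2, 24, 48, 72 and 168 h, F1 15, 23, 33, 8 and 6 at 4, 6, 12, 24 and 48 h and SPR 0 at 12 h. The F test called 30 in F1 and 0 in SPR, and the SPR 12 h ratios 1.13 and 1.04 lost their call. With batch 2 alone 0 members were called in F1 at 4, 6 and 12 h, in SPR at 12 h, in SPR minus F1 at 12 h and by the F test in F1 and SPR. The SPR ratios 1.13 and 1.04 and the F1 12 h ratio Psmb9 to Psmb6, -0.92, lost their call. With FVB 0 h replicate 1 as the only FVB control, a single array assumed to vary like the other groups, the median member at 12 h was at 0.72 instead of 0.77. Counts were then 1, 8, 0, 0, 0 and 1 at 6, 12, 24, 48, 72 and 1008 h, and 14 for SPR minus FVB at 12 h. The ratio Psmb9 to Psmb6 was then -0.72, -0.76, -0.81 and -1.25 at 2, 6, 12 and 1008 h, and Psmb10 to Psmb7 -1.25 at 1008 h.

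With a change of at least 1 the counts were 6, 13, 6, 4, 1 and 7 in FVB at 6, 12, 24, 48, 72 and 1008 h, and 2 and 3 in F1 at 6 and 12 h. With median centring there was 1 at 72 h in FVB and 8 at 4 h in F1. A count of 1 came at F1 24 h and F1 minus FVB 1008 h without the dimmest genes and without a batch term. It also came at FVB 72 h and F1 minus FVB 1008 h with trend and robust options, and at FVB 72 h with the mean over probe sets. Without 3 FVB arrays that stand apart in cell type lists, counts were 1 at FVB 72 h, 1 at F1 24 h, 2 for F1 minus FVB and 1 for SPR minus FVB at 1008 h.

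Leaving out 1 array at a time gave these ranges of counts. At 2 h FVB had 0 to 1, at 6 h 3 to 13, at 12 h 15 to 22 and at 24 h 5 to 12. FVB had 3 to 9 at 48 h, 0 to 1 at 72 h and 8 to 13 at 1008 h. In F1 the ranges were 1 to 5, 0 to 5, 0 to 9, 0 to 1 and 0 to 4 at 4, 6, 12, 24 and 72 h, and in SPR 0 to 40 at 12 h. F1 minus FVB had 0 to 3 at 72 h and 0 to 1 at 1008 h, and SPR minus FVB and SPR minus F1 0 to 41 at 12 h. The F test called 29 to 34 in FVB, 4 to 11 in F1 and 2 to 41 in SPR. In SPR at 12 h changes ran from -3.29 to 0.27 for Psmb5, -2.90 to 0.46 for Psmb6, -2.27 to 0.16 for Psmb7, -2.26 to 0.28 for Psme1, -2.90 to 0.33 for Psmd6, -3.45 to 0.48 for Psma3 and -3.08 to 0.31 for Psmb3. The SPR ratios ran from 0.43 to 1.84 and 0.76 to 1.31. Psmb9 to Psmb6 ran in FVB from -0.98 to -0.71 at 2 h, -1.10 to -0.78 at 6 h and -1.11 to -0.83 at 12 h, and in F1 from -1.31 to -1.01 at 12 h.

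Replicate numbers did not pair the arrays: 22 of 108 same-numbered pairs had a correlation above 0.1. With the replicate block, counts were 1 at FVB 72 h, 1, 2 and 5 in F1 at 4, 6 and 12 h, 0 for SPR minus F1 at 12 h and 5 for the F test in F1, and the SPR ratio Psmb10 to Psmb7, 1.04, lost its call.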

Other observations

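The labels put 3 arrays in no strain. Their median over the 42 subunit genes was 9.04 (labelled 2 h), 9.48 (labelled 6 h) and 9.10 (no time), where the assigned arrays ran from 6.97 to 9.79. On the same arrays Psmb9 read 7.26, 8.48 and 8.08, and Psmd6 9.03, 10.68 and 10.01.

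Uba6, the only measured gene of the list of ubiquitin precursors and E1 enzymes, which charges ubiquitin for transfer, rose at 2 h in FVB by 0.77 and at 4 h in F1 by 0.89. Of 9 NRF2 targets 3 rose and none fell at 12 h in FVB, with a median of 0.21, where 11.6% of all genes rose and 11.0% fell.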
